A study of Homo sapiens with 46 samples.

Results

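The 150 transcripts described here rose in control cells between the third and sixth day of neural conversion without having risen by day 3. They come from H1 cells, a widely used human embryonic stem line kept here in feeder-free culture. These cells carried a lentiviral short hairpin RNA: a control hairpin (shControl), one against KBTBD8 (shKBTBD8) or one against TCOF1 (shTCOF1). They were collected undifferentiated (hES) or after 1, 3 or 6 days in a neural induction medium (ND1, ND3 and ND6), and both mRNA and ribosome footprints, the stretches of mRNA that survive RNase I because a ribosome covers them, were sequenced. A first set of libraries held shControl and shKBTBD8 cells at all 4 stages, with 2 numbered replicates per group and 16 libraries per assay. A second set held 7 libraries per assay at hES and ND3: 2 shControl libraries at hES, and otherwise 1 library for each hairpin and stage. Every group thus shared the H1 background and a lentiviral hairpin, and no group without a hairpin was among them. The labels do not say that replicates came from separate cultures, nor whether footprints and mRNA came from the same cells, so p-values reflect only how far these samples spread, and that spread may be technical.

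Members were chosen from the 6 shControl mRNA libraries of the first set at hES, ND3 and ND6. Levels were read counts per 1000000 counts of the file (CPM), averaged over the 2 replicates and raised by 0.5. A row of the files had to reach 5 CPM at ND6, to lie less than 0.5 above its hES level on the log2 scale at ND3, and to lie at least 1 above its ND3 level at ND6. Of 63691 rows, 510 passed, and they formed 171 runs of adjacent rows. Of each run the row with most reads was taken, and the 150 runs with the largest change from ND3 to ND6 were kept. Members are called by their rank in that change, which ran from 6.05 for the member ranked first to 1.07262 for the last, against 1.07225 for the first run left out. At the other limits, the lowest member reached 5.01 CPM at ND6, against 4.98 CPM for the highest row below the level asked for. The highest member lay 0.499 above hES at ND3, and the lowest row beyond that limit lay 0.503 above. Joined where their counts agreed over the libraries, the members fell into 140 transcript groups. Of these groups 10 held 2 members each, so 20 members were not separate measurements. Members of different groups may still share part of their reads.

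KBTBD8 brings substrates to the ubiquitin ligase CUL3. With it, the ligase modifies TCOF1, the nucleolar protein treacle, and its relative NOLC1, and this pathway is known for its part in the specification of neural crest cells. Neural conversion takes pluripotent cells towards neural plate and neural crest fates, and genes of these lineages are turned on in succession. The files give transcripts by identifiers that they do not pair with gene names, and 0 of these matched the gene tables used here. Gene names, roles and sequences of the members, and the levels of lineage markers, of KBTBD8 and of TCOF1, were therefore not analysed here, and 2 identifiers stand in the text for the reader who wants to look them up.

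Across the members, control mRNA stayed low or fell until ND3 and then rose. The median level of the members was 3.45 and 5.54 CPM in the 2 hES libraries, 4.19 and 4.30 CPM at ND1, 2.77 and 3.39 CPM at ND3, and 11.0 and 9.67 CPM at ND6. Most were of modest abundance. At ND6 their levels ran from 5.01 to 378 CPM (mean of 2 libraries), with 74 members under 10 CPM and 7 over 100 CPM. These are the values that chose the members, so they are a description with no test.

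A change that first appears after day 3 was the pattern of only a portion of these transcripts. In control mRNA, 11 members stayed under 1 CPM at hES, ND1 and ND3, and 29 stood at least 4-fold above hES at ND6. For 56 members the ND6 level was less than 2-fold above hES, and for 8 it was below hES. Of the 150, 55 had fallen by at least 0.5 (log2) between hES and ND3, and 24 of them by at least 1. At ND1, 11 of the 150 were already at least 2-fold above hES, and these subsets overlap. The choice added 0.5 CPM to each level, which shrinks changes in sparse rows. In the fit used for the tests below, 4 members stood at least 1 (log2) above hES at ND3 in these libraries. These shapes go against a reading of the whole group as newly switched on, so it is described as the transcripts that rose between ND3 and ND6.

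**Figure D1:**
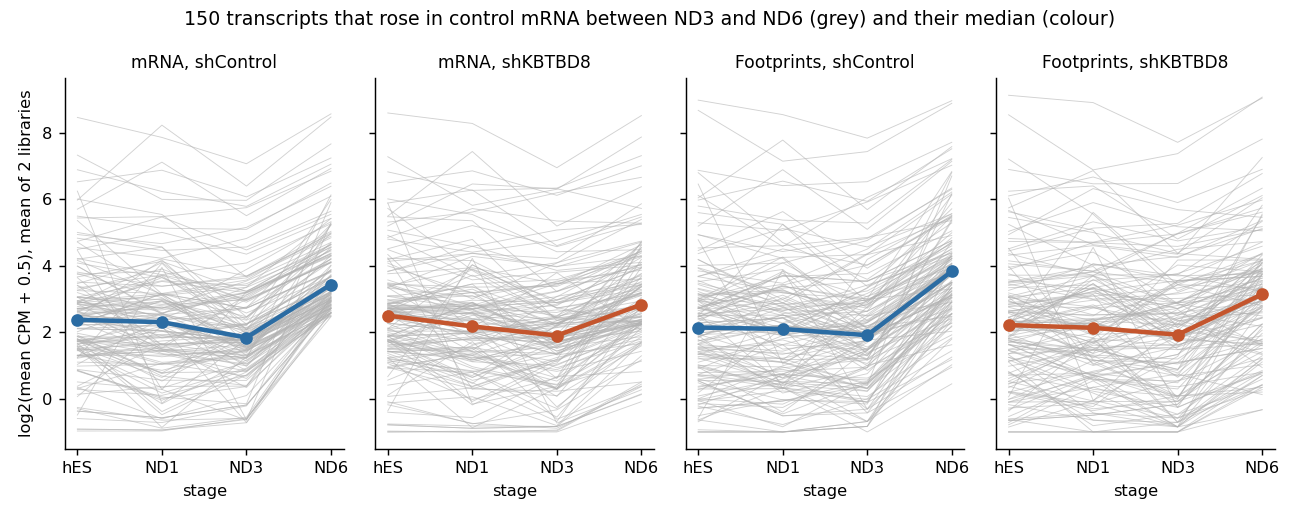
Levels of the 150 members (grey lines) and their median (coloured) at 4 stages, as log2 of the mean CPM of 2 libraries plus 0.5, for mRNA and footprints of shControl and shKBTBD8 cells. The medians are flat or falling from hES to ND3 and higher at ND6 in all 4 panels, and the ND6 median is lower in shKBTBD8 cells.

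The member ranked first shows the nearly silent kind. Its control mRNA was 0.505 and 2.05 CPM at hES, 0.417 and 0.653 CPM at ND1, 0.462 and 0.338 CPM at ND3, and 65.5 and 52.5 CPM at ND6. In shKBTBD8 cells it was 0.103 and 0.139 CPM at ND3 and 9.28 and 3.87 CPM at ND6. Both ND6 libraries of either hairpin stood above every earlier library, and at ND6 the shKBTBD8 libraries lay far below the control libraries.

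The member ranked second was similar, with control mRNA of 0.116 and 0.160 CPM at ND3 and 45.1 and 32.6 CPM at ND6. Its shKBTBD8 libraries at ND6 held 7.26 and 1.81 CPM. The member ranked ninth was the extreme case: in shKBTBD8 mRNA it had no read in either library at hES, ND1 or ND3, and it was measured at 0.615 and 0.262 CPM at ND6. Its control libraries at ND6 held 8.78 and 5.53 CPM, above both knockdown libraries.

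The highest member at ND6 shows a different shape, a dip and a return. Transcript uc002aty.2, ranked 66, had control mRNA of 361 and 340 CPM at hES, 242 and 220 CPM at ND1, 101 and 166 CPM at ND3, and 399 and 357 CPM at ND6. Its shKBTBD8 mRNA was 418 and 352 CPM at hES, 127 and 119 CPM at ND3 and 346 and 382 CPM at ND6. The ND6 libraries of both hairpins were back at the hES level, and the 2 hairpins overlapped there.

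Transcript uc001iou.2, ranked 37, rose at ND1, fell back and rose again. Control mRNA was 53.5 and 71.0 CPM at hES, 283 and 314 CPM at ND1, 95.8 and 71.2 CPM at ND3, and 397 and 310 CPM at ND6. In shKBTBD8 cells the same stages gave 39.9 and 48.9, 166 and 178, 37.1 and 34.9, and 93.9 and 70.7 CPM. The 2 peaks were present with both hairpins, and at every stage of this set both shKBTBD8 libraries lay below both control libraries. In all, 10 members stood at ND1 at least 1 (log2) above both hES and ND3. Among them the member ranked 10 held 12.7 and 17.1 CPM at ND1, and 0.185 and 0.107 CPM at ND3, in control mRNA. In shKBTBD8 cells its ND1 peak stood at 17.2 and 19.0 CPM. Its ND6 level there was 0.941 and 0.466 CPM against 7.21 and 6.49 CPM in control cells. The shKBTBD8 libraries thus lay just above the control libraries at the early peak and well below them at the late one.

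**Figure D2:**
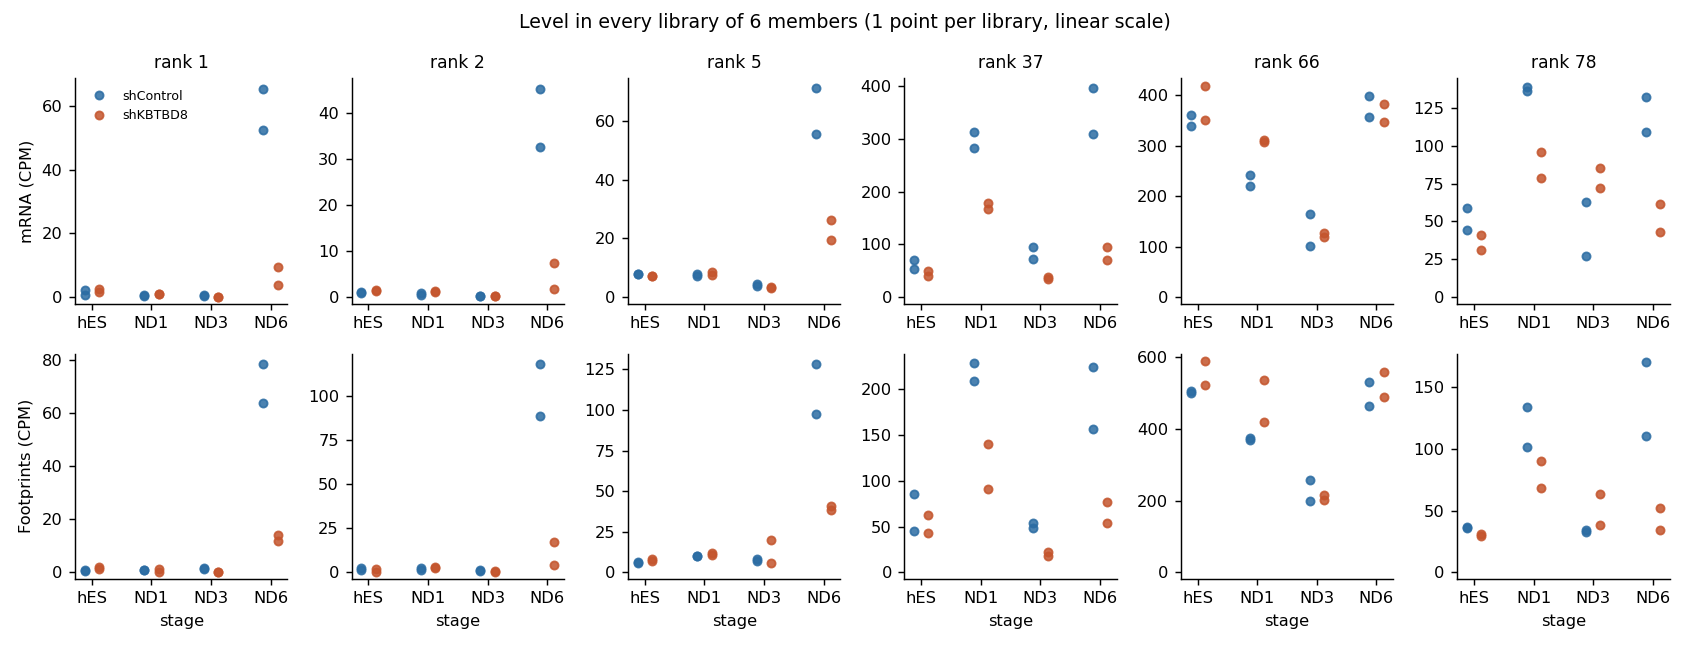
CPM of 6 members in each of the 16 mRNA libraries (upper row) and 16 footprint libraries (lower row) of the first set, 1 point per library, by stage and hairpin. Ranks 1, 2 and 5 are low until ND3 and high at ND6, rank 37 peaks at ND1 and ND6, rank 66 dips at ND3, and rank 78 is higher at ND6 than at ND3 in shControl cells alone.

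The first question put to libraries outside the choice was whether ribosomes followed the mRNA in control cells. If these footprints came from the same cells as the mRNA, which the labels do not say, the choice may also have favoured their rise. Every one of the 149 members tested had a higher footprint level at ND6 than at ND3. The median change was 1.87 (log2, quartiles 1.37 and 2.70), against 0.00 over all 16750 transcripts tested. By edgeR's quasi-likelihood test with Benjamini-Hochberg adjustment over all transcripts (threshold 0.05), 28 members were called higher and 0 lower. Among all transcripts 0.293% were called higher and 0.406% lower. At an unadjusted p under 0.05, 104 members were higher and 0 lower, against 11.2% of all transcripts in either direction. Both ND6 libraries lay above both ND3 libraries for 139 of the 149, against 24.5% of all transcripts.

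The per-library medians show the same step. The median footprint level of the members was 3.10 and 4.64 CPM at hES, 3.56 and 4.0 CPM at ND1, 3.23 and 3.40 CPM at ND3, and 14.6 and 12.3 CPM at ND6. Calls went to the members with many footprints: the 28 called had a median abundance of 5.51 (log2 CPM of the fit), against 3.41 for those not called. Over the members in 2 control libraries, the median was 32 footprint counts at ND3 and 80.5 at ND6. Without replicate 1 at ND3, replicate 1 at ND6 or replicate 2 at ND6 of the control footprints, 10, 11 and 13 members were called, against 0.297%, 0.163% and 0.146% of all transcripts. Without the first or second of these libraries, 4 and 5 members lay below 0.

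For the member ranked first, control footprints were 1.10 and 1.72 CPM at ND3 and 78.5 and 63.7 CPM at ND6, a change of 5.58 ± 0.60 (log2, SE; edgeR adjusted p = 2.04e-05). For uc001iou.2 they were 53.9 and 47.9 CPM at ND3 and 224 and 157 CPM at ND6, a change of 1.87 ± 0.34 (edgeR adjusted p = 0.00573). That call was lost without replicate 1 of the control footprints at ND3 (adjusted p = 0.0614) or at ND6 (adjusted p = 0.117). For uc002aty.2, footprints rose from 198 and 257 to 529 and 464 CPM, a change of 1.08 ± 0.24 (edgeR adjusted p = 0.0298). This call was lost without replicate 1 at ND3 (adjusted p = 0.217), replicate 1 at ND6 (0.240) or replicate 2 at ND6 (0.180). The changes of the 3 transcripts differ widely in size, and for each the ND6 libraries lay above the ND3 libraries.

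The smallest footprint changes were those of the members ranked 107 and 130. Rank 107 had 1.71 and 4.08 CPM at ND3 and 4.03 and 3.11 CPM at ND6, a change of 0.24 ± 1.21 (edgeR adjusted p = 0.976). Rank 130 had 4.75 and 10.1 CPM at ND3 and 9.41 and 9.33 CPM at ND6, a change of 0.28 ± 0.66 (edgeR adjusted p = 0.939). In both the libraries of the 2 stages overlapped, and the standard errors are too wide to place the change.

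Before ND3, footprints of the members mostly held or fell in control cells. From hES to ND3 the median change was -0.26 (log2) against 0.06 over all transcripts, with 10 members called lower and 1 higher (edgeR). Over all transcripts 3.68% were called lower and 3.34% higher. Among those that fell, uc002aty.2 changed by -1.33 ± 0.24 (adjusted p = 0.000847). Leaving out hES replicate 2 or ND3 replicate 1 of the control footprints gave medians of -0.12 and -0.42, against 0.08 and -0.03 over all transcripts. Without ND3 replicate 2 the median was -0.40.

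The second question was whether the rise took place in cells depleted of KBTBD8. In shKBTBD8 mRNA, 143 of the 150 members were higher at ND6 than at ND3. Their median change was 1.00 (log2, quartiles 0.58 and 1.88) against 0.00 over all 17669 transcripts. By the edgeR test 99 were called higher and 0 lower, a share of 66.0% of the members. Over all transcripts 8.64% were called higher and 8.32% lower. Both ND6 libraries lay above both ND3 libraries for 125 members, against 28.5% of all transcripts. With any 1 of the 4 libraries left out, the members' median lay between 0.94 and 1.09.

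The rise was thus present, and in most members smaller than in control cells. The median change in control mRNA, which the choice fixed to be large, was 1.51 in the same fit. The median ratio of the 2 changes was 0.61. In 32 members the shKBTBD8 change was the larger, and in 21 it was less than 0.25 of the control change. Because control mRNA chose the members, this comparison of sizes is a description. In bulk samples, fewer cells of a type and less RNA per cell cannot be told apart, here or below.

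For the member ranked first, the change in shKBTBD8 mRNA was 5.78 ± 0.65 (log2, SE; edgeR adjusted p = 2.76e-05). For uc002aty.2 it was 1.59 ± 0.19 (adjusted p = 4.44e-05, edgeR), and for uc001iou.2 it was 1.21 ± 0.19 (adjusted p = 0.00047, edgeR). The member ranked 42 went past its control change. Its control mRNA was 2.73 and 3.20 CPM at ND3 and 9.29 and 15.7 CPM at ND6, and its shKBTBD8 mRNA was 0.390 and 1.19 CPM at ND3 and 15.4 and 32.6 CPM at ND6. Its knockdown libraries thus started lower than the control libraries and ended with a range that reached above them.

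Of 7 members whose shKBTBD8 mRNA was lower at ND6 than at ND3, none passed the test. The member ranked 39 had the largest such difference, with 16.4 and 10.2 CPM at ND3 and 3.92 and 3.38 CPM at ND6, a change of -1.84 ± 0.61 (edgeR adjusted p = 0.0503). It passed the threshold in 4 of 10 alternatives, where the adjusted p ran from 0.00314 to 0.247. The member ranked 78 had 72.4 and 85.5 CPM at ND3 and 42.8 and 61.5 CPM at ND6, a change of -0.58 ± 0.29 (edgeR adjusted p = 0.191). Its control footprints were among those called higher, at 32.7 and 34.5 CPM at ND3 and 170 and 110 CPM at ND6, a change of 2.02 ± 0.30 (edgeR adjusted p = 0.00106).

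From hES to ND3, shKBTBD8 mRNA fell more often than it rose among the members. By edgeR 62 were called lower and 21 higher, with a median change of -0.45, or -0.46 with 1 member that had no count at hES set at its bound and 1 without counts at either stage left out. In that contrast 24.9% of all transcripts were called lower and 24.5% higher. Without hES replicate 2 the median was -0.26, and without hES replicate 1 it was -0.61, against 0.004 and 0.006 over all transcripts.

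Footprints of shKBTBD8 cells gave the same direction at lower depth. From ND3 to ND6 129 of 149 members were higher, with a median change of 1.16 (log2) against 0.01 over all transcripts. By edgeR 19 were called higher and 0 lower, where 0.472% of all transcripts were called higher. Both ND6 libraries lay above both ND3 libraries for 79 members, against 18.4% of all transcripts. For 4 members both ND3 libraries were at 0, and with these at the bound set by 3 counts over the group the median was 1.14. In replicate 2, 50 members had no footprint at ND3 and 32 had none at ND6. Without replicate 1 at ND3, replicate 2 at ND3 or replicate 1 at ND6 of the shKBTBD8 footprints, 36, 9 and 10 members were called, against 7.02%, 0.314% and 3.05% of all transcripts in either direction. In the last case the members' median was 0.67 and that of all transcripts -0.25.

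The calls in libraries outside the choice fell on partly shared members. Control footprints and shKBTBD8 mRNA, which share no library, both called 22 members. These are 78.6% of the 28 in footprints, where 66.0% of all members were called in shKBTBD8 mRNA. They are 22.2% of the 99 in mRNA, where 18.8% of the members tested were called in control footprints. The share of all transcripts called in both is not given here. The 6 called in control footprints and not in shKBTBD8 mRNA were ranked 38, 78, 90, 101, 129 and 150. Rank 90 had control footprints of 11.0 and 2.90 CPM at ND3 and 25.4 and 26.2 CPM at ND6. Its shKBTBD8 mRNA was 20.7 and 21.0 CPM at ND3 and 19.5 and 24.1 CPM at ND6, so those libraries overlapped. Whether the 2 changes of these 6 members differ was not tested.

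**Figure D3:**
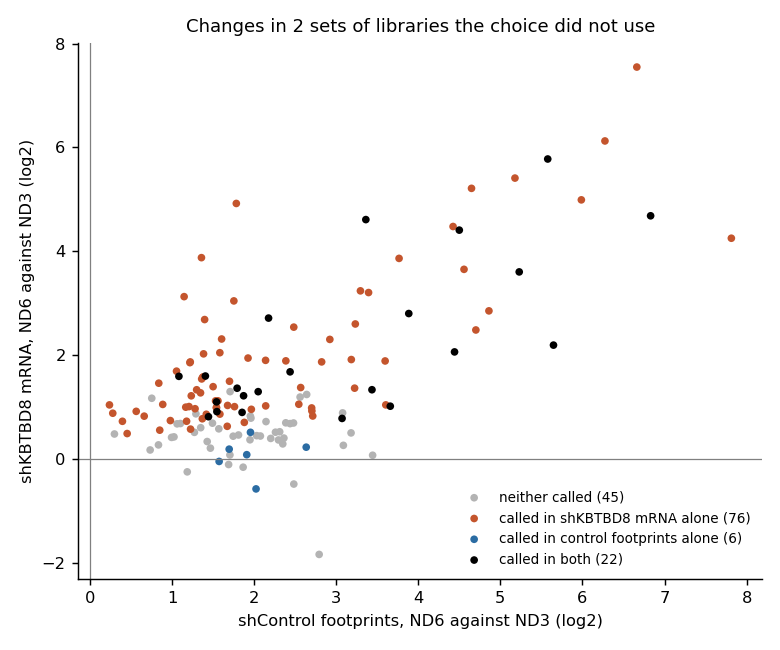
Change from ND3 to ND6 (log2) of 149 members, in control footprints (horizontal axis) and in shKBTBD8 mRNA (vertical axis), coloured by which of the 2 edgeR tests called the member. All points lie to the right of 0 and 7 lie below 0, with 22 members called in both tests.

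The third question was how the hairpins differed at each stage. The members' median difference between shKBTBD8 and shControl was near 0 until ND3 and below 0 at ND6. Single members already differed at ND3. The mRNA quartiles there were -0.63 and 0.47, against -0.21 and 0.22 over all transcripts. At that stage 28 members stood at -1 or below and 9 at 1 or above. In footprints at ND3 the quartiles were -0.93 and 0.59, against -0.54 and 0.36 over all transcripts. In mRNA the median difference was 0.02 (log2) at hES, 0.03 at ND1, 0.01 at ND3 and -0.61 at ND6. At ND6 128 of the 150 members were lower in shKBTBD8 mRNA, and both its libraries lay below both control libraries for 109, against 27.0% of all transcripts. Since the control libraries at hES, ND3 and ND6 chose the members, these values are a description and nothing is read from that count.

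Footprint libraries at ND6 were not used by the choice and were tested. The labels do not say whether they share cells with the mRNA that chose the members. If they do, the choice may also have favoured high control footprints at ND6, so this test is not fully separate from it. In shKBTBD8 cells 122 of 149 members had a lower footprint level, with a median difference of -0.72 (log2, quartiles -1.50 and -0.14) against -0.06 over all transcripts. The median level of the members was 14.6 and 12.3 CPM in the control libraries and 8.49 and 7.56 CPM in the shKBTBD8 libraries. No member passed the edgeR test after adjustment. DESeq2 called 8, all lower, against 0.275% of all transcripts in either direction (24 higher and 22 lower). At an unadjusted p under 0.05 edgeR gave 32 members lower and 1 higher, against 4.81% of all transcripts in either direction. Both shKBTBD8 libraries lay below both control libraries for 90 of the 149, against 20.3% of all transcripts. Without replicate 1 of shKBTBD8 at ND6, which leaves the sparser library alone, 9 members were called lower, against 1.41% of all transcripts in either direction. The members' median then moved to -1.11 and that over all transcripts to -0.25.

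Single members differed in this. For the member ranked second, footprints at ND6 were 88.2 and 118 CPM in control cells and 17.2 and 4.32 CPM in shKBTBD8 cells, a difference of -3.15 ± 0.63 (edgeR adjusted p = 0.0808). For rank 3 they were 105 and 117 CPM against 21.1 and 9.08 CPM, a difference of -2.82 ± 0.53 (edgeR adjusted p = 0.0715). For rank 78 they were 170 and 110 CPM against 52.3 and 34.1 CPM, a difference of -1.68 ± 0.30 (edgeR adjusted p = 0.0556). All 3 had groups that did not overlap, and none passed the threshold. For uc002aty.2 they were 529 and 464 CPM against 559 and 489 CPM, which overlapped, with a difference of 0.07 ± 0.24 (edgeR adjusted p = 1).

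**Figure D4:**
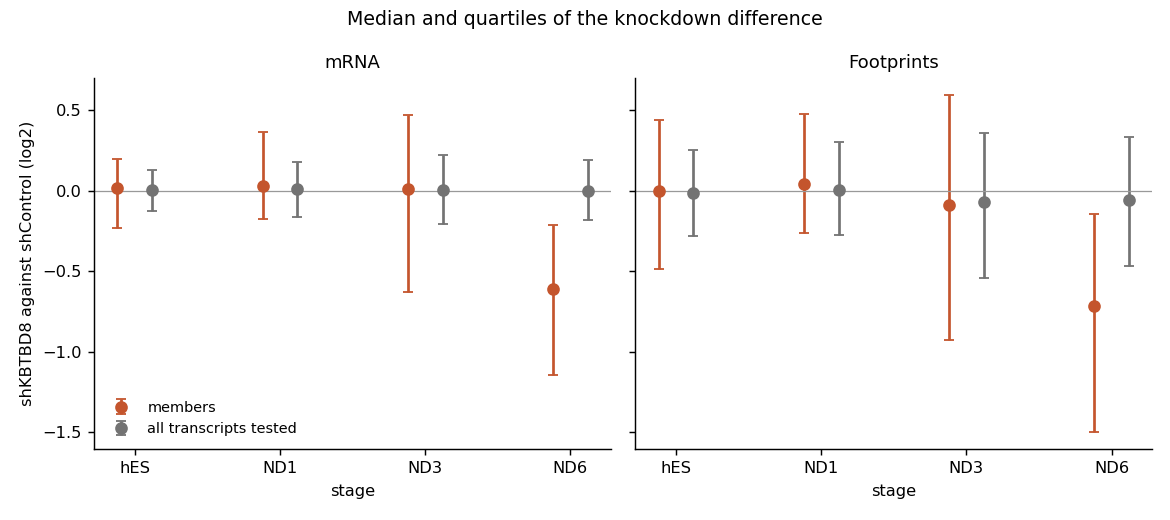
Difference between shKBTBD8 and shControl (log2) at each stage, as the median (point) and quartiles (bars) over the members and over all transcripts tested, for mRNA and footprints. The members' median is near 0 at hES, ND1 and ND3, and at ND6 it is -0.61 in mRNA and -0.72 in footprints, while that of all transcripts stays near 0.

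Set against each hairpin's own ND3 level, the difference depended on which libraries were kept. The footprint change from ND3 to ND6 was smaller in shKBTBD8 than in control cells for 111 of 149 members, with a median difference of -0.59 (log2). The limit given above for control footprints at ND6 holds here too. The interaction test of edgeR called 0 members, and 24 had an unadjusted p under 0.05, of which 21 were negative and 3 positive, against 4.08% of all transcripts. DESeq2 called 4, of which 2 were positive, against 0.119% of all transcripts in either direction. Without replicate 1 of shKBTBD8 at ND3 or at ND6, edgeR called 10 members (5 in each direction) and 2 (1 in each direction). Over all transcripts 2.33% were then called, 380 positive and 20 negative, and 0.309%, 5 positive and 48 negative. Without the ND3 library the members' median was -0.06 with 76 of 150 negative, and without the ND6 library it was -1.23. For rank 78 the interaction was -2.27 ± 0.42 (edgeR adjusted p = 0.16).

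Translational efficiency, the ratio of footprints to mRNA, could be tested in shKBTBD8 cells alone, since the control mRNA had been used. From ND3 to ND6 its median change over the members was 0.07 (log2) against 0.03 over all transcripts. The edgeR interaction of assay and stage called 0 members, and so did DESeq2. An unadjusted p under 0.05 was reached by 5 members, against 3.82% of all transcripts. Without the footprint library of replicate 1 at ND3 or at ND6, 16 members (13 higher) and 5 members (all lower) were called. These are 10.7% and 3.33% of the members, against 9.46% and 3.74% of all transcripts. The members' median was 0.52 and -0.42 in these cases, and that of all transcripts 0.25 and -0.30. It was -0.06 without the footprint library of replicate 2 at ND3. Within libraries, the median of footprint over mRNA CPM (log2) at ND6 was 0.16 and -0.17 for the members, against 0.08 and -0.23 for all transcripts.

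At ND1 neither assay had been used to choose members. Between shKBTBD8 and control mRNA the edgeR test called 4 members higher and 2 lower, where 0.543% of all transcripts were called higher and 0.673% lower. The balance of directions did not hold across alternatives: DESeq2 called 5 higher and 7 lower, and the fit on every row 4 higher and 7 lower. Of all transcripts 2.60% and 1.43% were then called in either direction. With the replicate number as a block, 5 were called higher and 9 lower, against 3.27% of all transcripts in either direction. In edgeR, those higher were ranked 31, 58, 82 and 148, with differences of 0.82, 0.76, 1.18 and 0.91 (log2). Those lower were ranked 61 and 106, with -0.88 and -2.12. Rank 106 held 4.09 and 5.38 CPM in control and 0.932 and 1.19 CPM in shKBTBD8 libraries, which were apart. Leaving out any 1 of the 4 ND1 libraries left 0 or 1 call, with 0 without control replicate 2 and 1 without each of the others.

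The second set gave another view of the members up to ND3, in libraries that the choice did not use. Over its 7 mRNA libraries, with hairpin as a term, edgeR called 47 of 147 members lower and 35 higher at ND3 against hES, with a median change of -0.07 (log2). That median ran from -0.15 to 0.03 with a library left out, and was above 0 without either shTCOF1 library. Of all transcripts 31.3% were called lower and 30.7% higher. A rise of at least 1 was called for 16 members and a fall of at least 1 for 25. Of the 47 called lower, 45 had also been below hES at ND3 in the first set's control mRNA, and of the 35 called higher, 28 had been above it there. In this fit over all hairpins, 27 members were called higher at ND3 by at least 0.5. The limit on the ND3 level in the choice was set on shControl mRNA alone, with 0.5 CPM added. The 27 are thus not a count of members beyond that limit in control cells.

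The transcript uc001iou.2 was among those higher at ND3 in the second set. Its control mRNA was 25.2 and 55.4 CPM at hES and 149 CPM at ND3, and its change over all hairpins was 1.52 ± 0.26 (edgeR adjusted p = 0.00115). Its shKBTBD8 libraries held 77.4 CPM at hES and 216 CPM at ND3, above the control libraries and so in the opposite order to the first set. The fitted difference of the hairpins was 0.73 ± 0.31 (edgeR adjusted p = 0.531). For uc002aty.2 control mRNA was 210 and 153 CPM at hES and 109 CPM at ND3, a change of -0.77 ± 0.13 (edgeR adjusted p = 0.000975). The largest fall was that of rank 42, with 34.8 and 81.1 CPM at hES and 1.01 CPM at ND3, a change of -5.14 ± 0.42 (edgeR adjusted p = 2.84e-05). The ND3 library stood outside the 2 hES libraries for each of the 3.

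**Figure D5:**
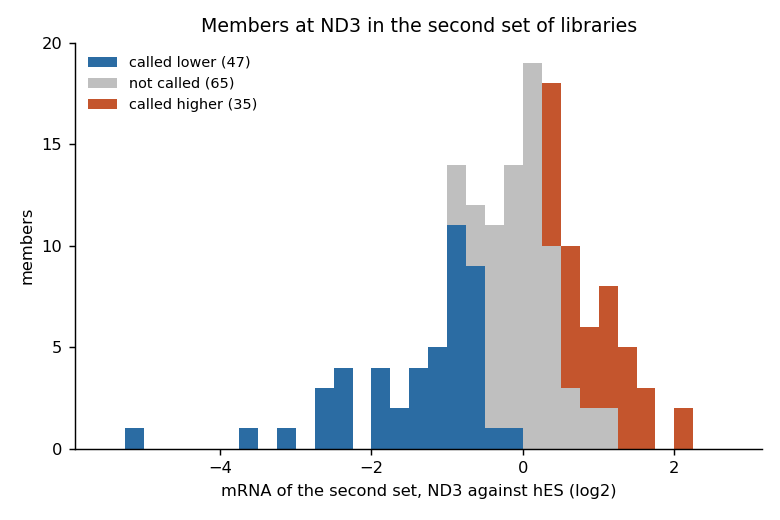
Number of members by their change at ND3 against hES (log2) in the mRNA of the second set, split by the edgeR call. Of 147 members tested, 47 were called lower, 35 higher and 65 in neither direction, and the falls reach further than the rises.

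With shKBTBD8 in the second set the members' levels were not lower. Over both stages 111 of 147 members were higher than in control cells, with a median difference of 0.26 (log2) against 0.00 over all transcripts. By edgeR 0 were called, and DESeq2 called 6, all higher, against 0.694% of all transcripts in either direction. At an unadjusted p under 0.05, 39 members were higher and 7 lower, against 9.16% of all transcripts. Taken by stage, where shKBTBD8 has 1 library each and no test was run, the median difference was 0.14 at hES and 0.38 at ND3. Over all transcripts it was 0.05 and 0.03. At these stages 97 and 116 members were higher, and the share of all transcripts that were higher is not given here. Without the hES library of shKBTBD8 the members' median was 0.39, and without the ND3 library it was 0.12. Over all transcripts the median was -0.002 in both fits.

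Some members with a strong ND6 rise in the first set were high at ND3 in this shKBTBD8 library. Rank 2 held 5.39 CPM there, against 0.132 CPM in the control library at ND3. Rank 3 held 19.6 CPM against 4.03 CPM. In the first set, the same members at ND3 had 0.164 and 0.199 CPM, and 1.05 and 1.01 CPM, in the shKBTBD8 libraries. The 2 sets thus gave different levels at the same stage and hairpin, and the difference between sets was not tested.

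With shTCOF1 the difference lay the other way. Over hES and ND3 108 of 147 members were lower than in control cells, with a median difference of -0.16 (log2) against 0.00 over all transcripts. By edgeR and by DESeq2 0 were called. At an unadjusted p under 0.05, 19 members were lower and 1 higher, against 5.31% of all transcripts. The median by stage was -0.13 at hES and -0.18 at ND3, against 0.01 over all transcripts at either stage. Without the hES library of shTCOF1 the fitted median was -0.31. No ND6 library of shTCOF1 was analysed here, so the rise itself could not be followed with this hairpin. The 2 hairpins were compared with the same control libraries.

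The listed length of the members, which the choice did not name, was on the median larger, with wide overlap. The files list a length for each row, in a unit they do not state. Its median was 667 over the members (quartiles 443 and 1027, range 86 to 8778), against 390 over all transcripts. Among the 11176 transcripts that also reached 5 CPM at ND6 the median was 447 (quartiles 253 and 745). A value above 1000 was listed for 39 members, or 26.0%, against 11.7% of all transcripts and 14.6% of those at 5 CPM or more. Levels are not divided by length here, so a long transcript reaches 5 CPM with fewer molecules, and the part of this in the choice was not tested.

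File totals, in which overlapping transcript rows can count a read more than once, ran from 34.3 to 57.4 M per mRNA library and, for footprints, from 2.31 to 21.1 M in the first set. In the second set mRNA totals ran from 24.0 to 62.4 M and footprint totals from 8.80 to 16.4 M. The number of footprints limits what could be called. In 19 members at least 1 control footprint library at ND3 had no count, and a fitted change then depends on the small count that the fit adds.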

How the data were processed

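The authors deposited 1 file per library with whole-number counts per transcript row, and a length value per row whose unit (other than a count) is not stated. Per the submitters' processing notes, reads went through CASAVA 1.8, TopHat2 2.0.7 and Bowtie2 2.0.6 on hg19. How reads were counted, by strand or with multiple mappings, is not given in the sources used here, so antisense, overlapping and near-identical transcripts are uncertain.

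Members were chosen by the rule given above, and they and all lists were chosen with earlier results of these data known. For the tests, rows averaging 10 counts or more and no further than 20 rows apart were joined where their counts agreed over the 46 libraries (chi-square per degree of freedom below 2). Each group was represented by its highest row, or by its members, which gave 17690 rows. Counts were tested with edgeR 4.0.16 in R 4.3.3 (quasi-likelihood F-test, TMM scaling, the filterByExpr filter, and p-values adjusted by Benjamini and Hochberg over all transcripts, threshold 0.05). One fit of 8 groups served each assay of the first set, and a fit over both assays served translational efficiency. The second set had stage and hairpin as additive terms over 7 libraries. Standard errors come from the F statistic. The procedure was tested on simulated data.

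Alternatives were DESeq2 1.42.0, its size factors in edgeR, no filter, every row, only the groups compared, a replicate block, each library left out, and for the choice itself a pseudocount of 2 and TMM library sizes. One alternative was chosen after seeing the data: 1 member per transcript group. The rule for named transcripts took, without gene names, the 2 with the highest control mRNA at ND6 among those called higher in control footprints, and the 2 with the smallest footprint change. Members given by rank otherwise were chosen after their values were seen. The 7 gene lists and the cell type markers need gene names and could not be applied. The second set's footprints were not tested.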

Additional observations from a re-analysis of the deposited data

Results flagged for a closer look

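In 3 members every mRNA library moved one way in control cells and the other way in shKBTBD8 cells between ND3 and ND6. The difference between the hairpins was not tested in mRNA, because control mRNA chose the members to rise. The member ranked 39 changed by -1.84 (log2) in shKBTBD8 mRNA. Its libraries held 2.40 and 2.14 CPM at ND3 and 13.1 and 8.21 CPM at ND6 with shControl, against 16.4 and 10.2 CPM and then 3.92 and 3.38 CPM with shKBTBD8. Its footprints did the same, with a change of -1.86 (log2) in shKBTBD8 cells. They held 1.95 and 0 CPM and then 6.89 and 6.22 CPM with shControl, and 8.04 and 3.80 CPM and then 2.83 and 0 CPM with shKBTBD8. The footprint interaction of this member was -4.65 ± 1.78 (edgeR adjusted p = 1). The member ranked 58 changed by -0.11 in shKBTBD8 mRNA, from 4.76 and 5.07 to 4.71 and 4.25 CPM. The member ranked 78 changed by -0.58 in shKBTBD8 mRNA, and its footprint interaction of -2.27 ± 0.42 (edgeR adjusted p = 0.16) is the nearest to a tested difference among these.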

How the results depend on the processing

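Counts below are members called by adjusted p under 0.05. Percentages, where given, are all transcripts called in either direction in the same fit, and medians are of the members' log2 values. Of 142 results under alternatives, 108 stayed within 1.5 times the reported count and 34 did not. The median over the members changed sign in 4 of them, each with a library left out (2 for translational efficiency, 2 for ND3 against hES in the second set). At ND1 the balance of calls turned to more lower than higher with DESeq2, with every row and with the block. Control footprints from ND3 to ND6 (28 called) gave 48 with DESeq2, 45 with only the groups compared, and 10 to 23 with a library left out. Over all transcripts the share called in that contrast was 0.699% as reported, 2.82% with DESeq2 and 0.984% with only the groups compared. The larger count of members with DESeq2 thus came with a larger share of all transcripts. With a library left out that share moved too, and the members' median was 1.75 to 2.01. Control footprints from hES to ND3 (11 called) had a median of -0.42 to -0.12 with a library left out. shKBTBD8 footprints from ND3 to ND6 (19) gave 29 with DESeq2, 5 with only the groups compared and 9 to 36 with a library left out. For these shKBTBD8 footprints the share of all transcripts called was 0.955% as reported, 1.98% with DESeq2 and 0.121% with only the groups compared. With a library left out the members' median was 0.67 to 1.64. shKBTBD8 against control mRNA at ND1 (6) gave 12 with DESeq2 (2.60%), 11 on every row (1.43%) and 12 with only the groups compared (1.94%). Its median was 0.01 to 0.05 with a library left out. For footprints of shKBTBD8 against control at ND6 (0), DESeq2 called 8 (0.275%), its size factors in edgeR 1 (0.0239%) and no filter 2 (0.0283%). The median was -1.11 to -0.55 with a library left out. The footprint interaction (0) gave 4 with DESeq2 and 0 to 10 with a library left out, and translational efficiency (0) gave 0 to 16. For shKBTBD8 in the second set (0), DESeq2 called 6 (0.694%), and the median was 0.12 to 0.39 with a library left out. The cause of these shifts was not tested.

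The labels do not say that replicate numbers pair samples. Differences between replicates correlated between groups at -0.09 to 0.84 in mRNA (median 0.25) and -0.10 to 0.32 in footprints (median 0.07). With the replicate number as a block, 14 members were called at ND1, 6 in footprints of shKBTBD8 against control at ND6 and 1 in the interaction. Of all transcripts 3.27%, 0.101% and 0.0239% were called in these fits. The other counts of members stayed within 1.5 times. In control footprints the call of uc002aty.2 was also lost with only the groups compared, at 1.07 (log2, edgeR adjusted p = 0.138). Choosing with a pseudocount of 2 kept 105 of the 150 members, and TMM library sizes kept 147.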

Other observations

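The second set's footprint libraries entered no comparison. The members' median level there was 3.60 and 2.93 CPM in the 2 shControl libraries at hES, 4.12 CPM with shKBTBD8 and 2.68 CPM with shTCOF1. At ND3 it was 3.29 CPM with shControl, 4.32 CPM with shKBTBD8 and 2.46 CPM with shTCOF1. The order of the 3 hairpins at ND3 is that of the mRNA libraries, whose member medians were 3.21, 4.82 and 2.61 CPM. With 1 library each, this has no replicate check. The member ranked 2 held 12.2 CPM of footprints with shKBTBD8 at ND3 and none with shControl, and rank 3 held 20.7 CPM against 6.33 CPM.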
